A study of Homo sapiens with 2 samples.

Results

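The AP-1 and immediate early factors examined here are 10 genes: FOS, FOSB, FOSL1 and FOSL2 of the Fos family, JUN, JUNB and JUND of the Jun family, the zinc finger factor EGR1, and the immediate early response genes IER2 and IER3. They were chosen by name. Every probe set with one of these names as its only gene symbol on the platform was taken, which gave 22 of the 41097 probe sets with 1 symbol. RKO, an established human colon cancer cell line, was measured on 2 Affymetrix arrays. Cells on the control array carried a retroviral hairpin against luciferase (sh-Luci), and cells on the other array carried hairpin #1 against the L form of BCLAF1 (sh-BCLAF1-L), a nuclear protein linked to transcription and RNA processing. Both cultures were exposed to retrovirus, received fresh medium after 24 h and were selected with 2 µg/ml puromycin for 72 to 96 h before harvest, so viral infection and drug selection are common to both groups. Each group was 1 array of a selected culture and no other hairpin against BCLAF1 was measured here. No spread between cultures can be given and no test was made. Throughout, a difference is log2(intensity + 1) on the sh-BCLAF1-L array minus that on the sh-Luci array.

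AP-1 is a dimer of basic leucine zipper proteins. A Jun protein pairs with another Jun protein or with a Fos protein, whereas Fos proteins depend on a partner, and the dimer binds the sequence TGACTCA in promoters and enhancers. In resting cells the genes FOS, FOSB, EGR1 and IER2 are transcribed weakly, and growth factors, serum or stress switch them on within minutes through MAP kinases, serum response factor with its ETS partners, and CREB. Their transcripts are short-lived. FOSL1 (FRA-1) is induced later, is maintained by sustained ERK signalling, and is abundant in many invasive carcinoma lines.

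Promoter sequences are shown because they hold short stretches that match known binding motifs. Among these, only the TGACGT core recurred in several of the genes. RefSeq promoters (assembly GRCh38.p14, from 250 bases before to 50 bases after the annotated start) were available for 8 of the 10 genes. Each stretch below lies upstream of the start, is written 5′ to 3′ on the strand of its gene, and has every matched element in capitals, on either strand. FOS at chr14:75278754-75278779 (+), FOSB at chr19:45467926-45467951 (+), FOSL2 at chr2:28392782-28392807 (+), JUN at chr1:58784097-58784124 (-), JUND at chr19:18281694-18281832 (-) and EGR1 at chr5:138465333-138465427 (+) read as follows.
FOS: gttgagcccgTGACGTttacactcat
FOSB: aaggggcgggTGACGTaagcaggggg
FOSL2: agtctggggtTGACGTgagtgaatcc
JUN: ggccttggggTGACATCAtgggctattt
JUND: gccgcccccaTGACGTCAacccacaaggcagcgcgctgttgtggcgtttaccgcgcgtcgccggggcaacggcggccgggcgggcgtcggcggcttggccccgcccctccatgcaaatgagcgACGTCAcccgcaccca
EGR1: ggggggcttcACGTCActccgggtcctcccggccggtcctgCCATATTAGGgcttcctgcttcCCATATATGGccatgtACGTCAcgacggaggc

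The element TGACGT, the core recognised by CREB and ATF proteins, was present in 5 of the 8 promoters (FOS, FOSB, FOSL2, JUND and EGR1), against 7.98% of 35116 RefSeq promoters of the same length. Counting bases upstream of the start with a minus sign, its first base lay at -64 in FOS, -60 in FOSB and -66 in FOSL2. The full palindrome TGACGTCA, which contains that core, was found in JUND alone among the 8 and in 1.85% of all promoters. JUN carried TGACATCA, the variant through which Jun and ATF dimers are known to act on the JUN gene itself, a match found in 2.61% of all promoters. EGR1 held 2 CArG boxes, the binding motif of serum response factor, starting at -105 and -83, and 1.29% of all promoters held any. The consensus AP-1 site TGACTCA was matched once among the 8, in FOSL2, starting at base 5 of the transcript (chr2:28392862-28392868), and in 4.95% of all promoters. Both strands were searched. A match describes letters in this window and does not show that a factor binds there. Sequence more than 250 bases upstream was not searched. The lack of a match here, as for a CArG box in FOS, therefore does not show that a gene has none.

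Transcript levels of most of these factors were close to each other on the control and the knockdown array. Of the 22 probe sets, 9 read higher and 13 lower after knockdown, with a median difference of -0.0088. No probe set reached 1.5-fold in either direction, where 2.27% of all probe sets with 1 symbol did. Among the 19 probe sets bright enough to be called detected the count was also 0, against 0.715% of detected probe sets. With shares this small, a count of 0 in 22 or 19 probe sets is near the background. At 1.2-fold the count was 0 higher and 1 lower, and the lower one was FOSL1. The background at 1.2-fold was 11.4% higher and 7.38% lower over all probe sets, and 7.33% higher and 5.07% lower over detected ones. Apart from FOSL1, the ratio of knockdown to control lay between 0.890 (FOSB) and 1.16 (a probe set of EGR1) on the other 21 probe sets.

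**Figure D1:**
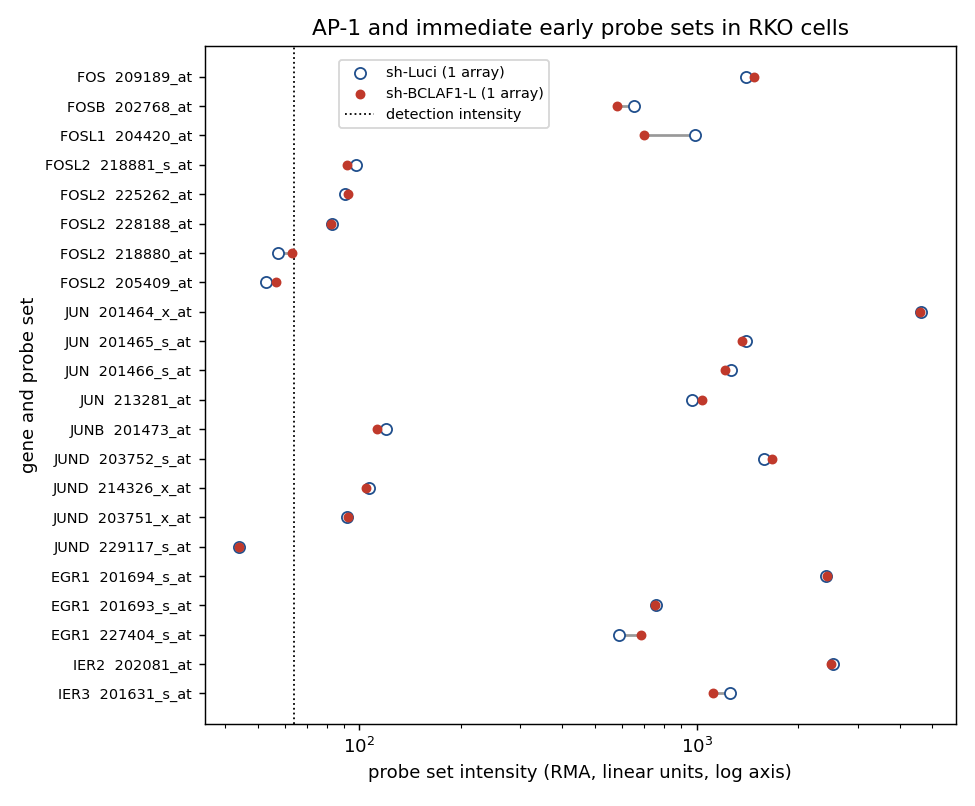
Intensity of each of the 22 probe sets on the control array (open circles) and the knockdown array (filled circles), on a log axis. The dotted line marks the detection intensity of 63.9. The circles overlap or nearly touch for most probe sets, and the longest bar is that of FOSL1, from 988 to 699.

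The arrays themselves set the scale for these differences. A probe set was called detected when its mean over both arrays was an intensity of 63.9 or more, the 40th percentile of the table, and 19 of the 22 probe sets passed, with at least 1 for each of the 10 genes. Intensities of different probe sets are not comparable with each other, since probes differ in affinity. Over all 14509 detected genes, each taken at its brightest probe set, the differences had a median of 0.019 and an SD of 0.18. Within a gene, the differences of detected probe sets had a pooled SD of 0.16 over 6748 genes. That SD is the nearest to a technical error available and does not cover infections, cultures or arrays. It pools dim and bright probe sets and can include differences between transcript forms of a gene. BCLAF1 itself was lower on all 6 of its probe sets, by 1.43-fold to 2.96-fold. On the knockdown array the 18 biotin spike-in probe sets were all higher (0.05 to 0.33). The 3′ to 5′ signal ratio there was 3.81 against 3.41 for ACTB and 1.49 against 1.38 for GAPDH. The part of these shifts in the results was not tested. Of the 4 epithelial markers, EPCAM, KRT18 and KRT8 were detected and CDH1 was not. Of the 5 intestinal markers, LGALS4 (186 and 143, a difference of -0.37) and, close to the detection intensity, CDX2 (67.4 and 77.3) and VIL1 (61.1 and 67.5) were detected, whereas KRT20 and CDH17 were not. Among markers of other cells, 3 of 4 fibroblast, 1 of 3 blood and 2 of 3 endothelial genes passed that intensity. Summed over all measured genes of each type, detected or not, intensities were 558 and 610, 211 and 199, and 316 and 329 on the control and knockdown arrays. Each of these sums is set mainly by its brightest probe set.

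Among the Fos proteins, the partners that confer strong DNA binding on Jun, FOSL1 stood lowest. On its single probe set the intensity was 988 with sh-Luci and 699 with sh-BCLAF1-L, a difference of -0.50 and a ratio of 0.708. This value was 1.41-fold lower, short of the 1.5-fold mark, and larger than the pooled SD between probe sets of a gene. Among the 14509 detected genes, 75 including FOSL1 differed this far or further downwards, which is 0.517% of them. Brightness matters for such a rank, because dim probe sets scatter more. Of the 6350 probe sets with a mean intensity of at least 500, 23 were as low as FOSL1 or lower, and 0.378% were at least 1.4-fold lower. In these bulk samples a lower signal per cell and fewer cells with the transcript cannot be told apart. No second probe set of FOSL1 exists with this single symbol, so the value has no check within the array.

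FOS, the first known member of the family and the classical immediate early gene, was slightly higher after knockdown. Its intensity was 1402 on the control and 1479 on the knockdown array, a difference of 0.08. FOSB, which also has a truncated splice form known from brain, read 652 and 581, a difference of -0.17. Its value lay just outside the pooled SD, and 30.4% of detected probe sets differed at least as much in either direction. FOS and FOSB each have 1 probe set here.

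FOSL2 (FRA-2), which is expressed more steadily than FOS, was represented by 5 probe sets, all dim. The 3 detected ones read 97.6 and 91.6, 90.3 and 92.6, and 82.8 and 82.5 in control and knockdown. The remaining 2 lay below detection, at 57.2 and 63.3 and at 52.7 and 56.7. Their differences ran from -0.09 to 0.14 with both signs present, so neither direction was common to the gene.

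The Jun family, which can form AP-1 dimers without Fos, was nearly level. JUN, the transcription factor that gave the family its name, read 4637 and 4602 on its brightest probe set, a difference of -0.011. Its other probe sets read 1399 and 1367, 1265 and 1212, and 969 and 1034. Of these 4 probe sets 3 were lower and 1 was higher, and the differences spanned -0.06 to 0.09. All 4 lay far above the detection intensity, and all 4 differences were within 0.1 of 0 on the log2 scale.

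JUNB, which often opposes JUN in growth control, had 1 probe set, which read 120 and 113, a difference of -0.09. JUND, the Jun member best known from quiescent cells, had 4. Its brightest read 1586 and 1676, a difference of 0.08. The dimmer ones read 107 and 104, 91.9 and 92.3, and 44.0 and 43.9, the last below detection. The differences of the dimmer JUND probe sets lay between -0.036 and 0.0059. The brightest JUND probe set was the one furthest from 0, and that distance was under the pooled SD.

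EGR1, a zinc finger factor that is induced alongside FOS and restrained by NAB corepressors, was measured by 3 bright probe sets. Control and knockdown values were 2414 and 2438 on the brightest, 759 and 752 on the next, and 588 and 684 on the last. The first pair of probe sets differed by 0.014 and -0.014, whereas the last differed by 0.22, the highest of the 22 probe sets. Its probe sets shared no direction, and 19.4% of detected probe sets differed by at least 0.22 in size.

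IER2, a small nuclear protein induced with FOS, read 2536 and 2497, a difference of -0.023. IER3 (IEX-1), a stress-inducible protein that is also a target of NF-kB and p53 and prolongs ERK activation, read 1253 and 1120, a difference of -0.16. Each had 1 probe set. The IER3 difference was about the size of the pooled SD, and 31.9% of detected probe sets differed at least as much.

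Across the set, 15 of the 19 detected probe sets differed by at most 0.1 in size, against 47.2% of all detected probe sets with 1 symbol. Over all probe sets the share was larger among bright ones, at 57.1% for a mean intensity of 500 or above. For these genes it was not larger among bright ones. Of their 13 probe sets at 500 or above, 9 lay within 0.1, and so did every dimmer detected one, of FOSL2, JUNB and JUND. These counts do not weigh genes equally, because FOSL2, JUN, JUND and EGR1 each gave several of the 19. By gene, only FOSL1, FOSB and IER3 differed by more than 0.1 on the brightest probe set. Within the pooled SD lay 15 of the 19, against 67.3% of all detected probe sets, a share not matched for brightness. Those outside the pooled SD were the probe sets of FOSL1, FOSB and IER3, all lower, and the one of EGR1, which was higher. At the level of genes, with the brightest probe set each, 3 genes were higher and 7 lower, and the median was -0.06. The counts were 4 and 6 when a gene took the median of its probe sets, and 2 and 8 after the overall median difference was subtracted. Of all detected genes 55.0% were higher. All 4 genes with several probe sets (FOSL2, JUN, JUND and EGR1) had probe sets on both sides of 0, and the other 6 had a single one.

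**Figure D2:**
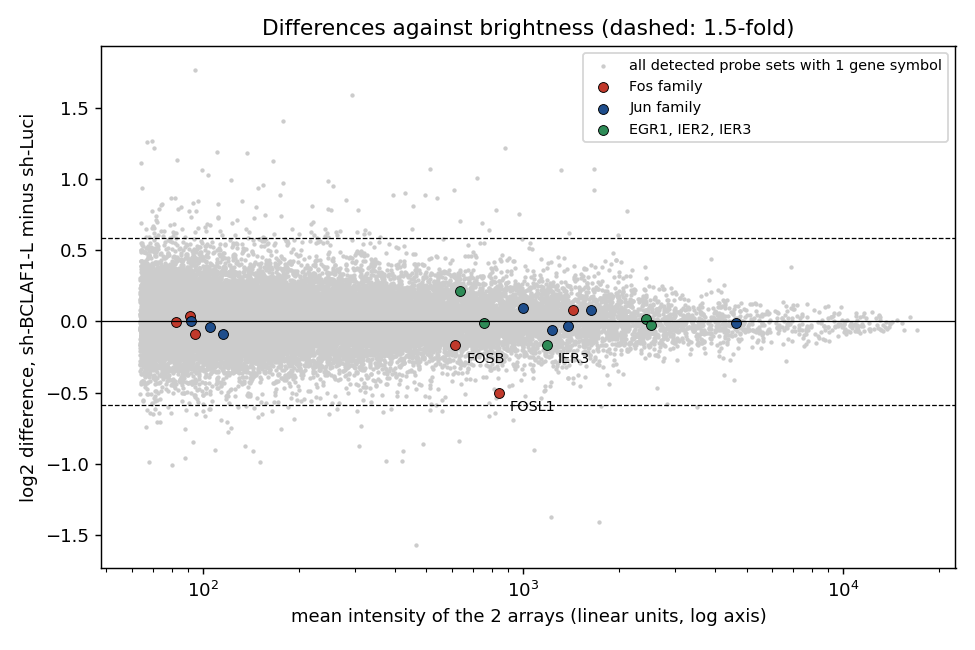
Log2 difference between knockdown and control (y axis) against mean intensity (log x axis) for the 26449 detected probe sets with 1 symbol (grey) and the 19 detected probe sets of the Fos family (red), the Jun family (blue) and EGR1, IER2 and IER3 (green). Dashed lines mark 1.5-fold. FOSL1, at -0.50, is the coloured point nearest the lower line, and the other coloured points lie between -0.17 and 0.22.

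Transcripts of proteins that pair with or compete with Fos and Jun lay on both sides of 0. Of 18 listed bZIP genes 16 were measured and 14 detected, of which 7 were higher and 7 lower with a median difference of -0.0033. None reached 1.5-fold, where 0.455% of detected genes were that much higher and 0.2% that much lower, so a count of 0 among 14 is near the background. BATF2, an interferon-inducible bZIP protein, had the lowest difference at -0.56 (128 and 86.6) on 1 probe set. CREB1, which binds the TGACGT core shown above, had the highest at 0.20 (445 and 512), and its 7 probe sets ran from -0.12 to 0.30. Chosen after its values were seen, ATF3, a stress-induced partner of Jun, read 246 and 248 on its brightest probe set. Its other probe sets, also detected, differed by -0.02 and -0.18.

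Genes listed as other immediate early genes, not all induced by the same signals, were also split between the directions. Of 29 listed genes 27 were measured and 26 detected, with 13 higher, 13 lower, a median of 0.0057 and none past 1.5-fold, against 0.455% of detected genes higher and 0.2% lower by that much, so that a count of 0 in a list of this size is near the background. The median turned to -0.044 when a gene took the median of its probe sets. CCN2 (connective tissue growth factor), a target of SRF and YAP, was the lowest at -0.57 (145 and 96.8) on its single probe set, and passed 1.5-fold once the overall median difference or a loess curve was subtracted. KLF6, a Krüppel-like factor, was the highest at 0.46 (568 and 782), and all 5 of its probe sets were higher, by 0.03 to 0.46. EGR3, a relative of EGR1 that was named after its value was seen, read 549 and 470, a difference of -0.22.

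On their brightest probe sets, transcripts of the kinases and factors upstream of these genes differed by at most 0.26 in size. Of 25 listed, 20 were measured and all 20 detected, with 11 higher, 9 lower and a median of 0.040. None was past 1.5-fold, which is near the background of 0.455% higher and 0.2% lower for a list of 20. The median of 0.040 turned to -0.042 when a gene took the median of its probe sets and to -0.061 without probe sets named _s_at or _x_at. The ribosomal S6 kinases marked the ends of the list. RPS6KA1, activated by ERK, read 384 and 319, a difference of -0.26. RPS6KA5 (MSK1), which phosphorylates CREB and histone H3, read 155 and 185, a difference of 0.26, with its 3 probe sets spread from -0.34 to 0.55. Transcript levels do not report kinase activity, which was not measured here.

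Textbook AP-1 target genes were the list with members past 1.5-fold. Of 22 listed, 21 were measured and 16 detected, with 10 higher, 6 lower and a median of 0.08. At least 1.5-fold higher were 2 of the 16, against 0.455% of detected genes, and 0 were that much lower, against 0.2%. The list was chosen with MMP1 already known to be higher, so its count is not independent evidence of a direction. MMP1, interstitial collagenase, read 145 and 440, a difference of 1.59. MMP10, stromelysin-2, read 91.0 and 139, a difference of 0.61 that was short of 1.5-fold with a pseudocount of 32 or after subtraction of the overall median difference. Each rests on 1 probe set. In the other direction, KRT18, a keratin of simple epithelia and also an epithelial marker here, read 979 and 674, a difference of -0.54 that was short of 1.5-fold. Named after their values were seen, the urokinase gene PLAU differed by -0.47 (326 and 235) and cyclin D1 (CCND1) by -0.44 (738 and 543) on their brightest probe sets. Their other probe sets differed by -0.14 and -0.09. Detected target genes lay on both sides of 0, with MMP1 and MMP10 at the upper end and KRT18, PLAU and CCND1 at the lower.

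**Figure D3:**
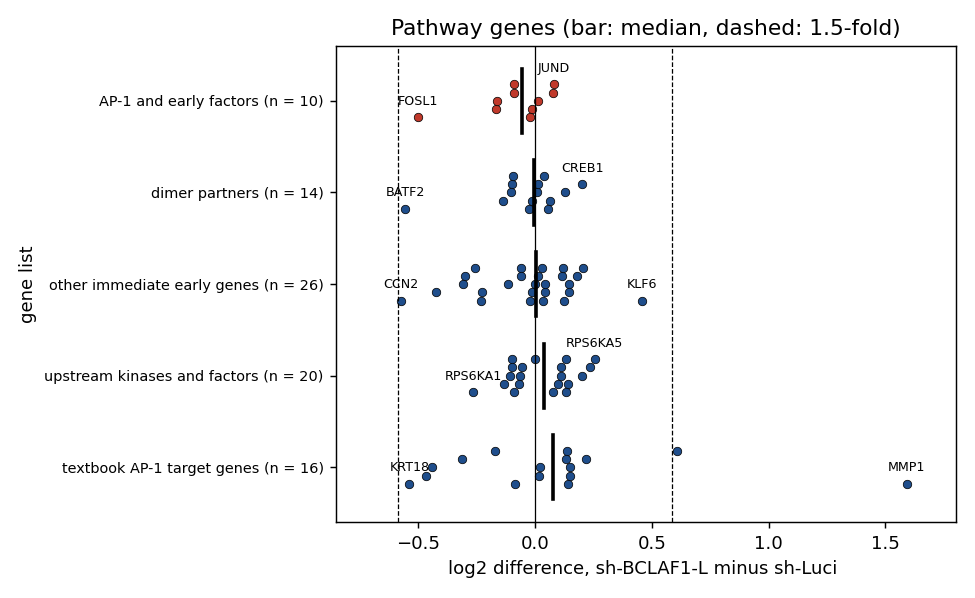
Log2 difference between knockdown and control (x axis) for the detected genes of each list, 1 point per gene at its brightest probe set; vertical position within a list only separates the points. Bars are medians, from -0.06 for the 10 factors to 0.08 for the 16 target genes, and the 2 points beyond the dashed 1.5-fold lines are MMP1 and MMP10.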

How the data were processed

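Total RNA of RKO cells (200 ng per sample, per the labels' protocols) was labelled with biotin by a kit that primes from the 3′ end and hybridized to Affymetrix arrays, 1 per group. The authors' deposited values are linear probe set intensities. RMA, which subtracts background, equalises distributions between arrays and summarises probes, is named in the submitters' processing notes; neither the software nor the final scaling is given in the sources used here. The lowest deposited intensity was 1, and array medians were 82.7 (sh-Luci) and 84.5 (sh-BCLAF1-L). The number of arrays limits the precision. Probe sets were named from the platform annotation, with 41097 of 54675 having 1 symbol, 1801 several and 11777 none; 41043 of these were matched by Entrez identifier, and named, through a RefSeq table of GRCh38.p14. No build is named for the probe sets. Differences used a pseudocount of 1. A gene took its probe set with the highest mean; the detection filter was the 40th percentile of all probe sets. No test could be made. All probe sets of the 10 genes are given; from each pathway list, genes past 1.5-fold are named, or otherwise its highest and lowest detected gene. KRT18, outside this rule, was named after its value was seen. Listed genes without a probe set of 1 symbol were not analysed here. The genes and lists were chosen with earlier results of these data known; the intensity of 500 was set after seeing the data. The steps were also run on simulated data with known changes of 1.5-fold or more. The simulated noise was the pooled SD between probe sets of a gene, so differences between cultures, infections or arrays were left out. Alternatives were pseudocounts of 32 and none, centring, other filters and thresholds, the median over probe sets, and leaving out probe sets with _s_at and _x_at names. Python 3.11.15, pandas 2.3.3 and statsmodels 0.14.6 were used.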

Additional observations from a re-analysis of the deposited data

How the results depend on the processing

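No paired analysis was possible because there was a single array for sh-Luci and a single one for sh-BCLAF1-L; leaving out an array leaves no comparison. The direction of 2 of the 22 probe sets turned after centring on the overall median difference of 0.026, and that of 1 turned when a loess curve of span 0.3 was subtracted; none turned with a pseudocount of 32 or without one. FOSL1 lay between -0.52 and -0.48 in these 4 settings. The median over the 10 genes ran from -0.08 with the median difference subtracted to -0.02 when a gene took the median of its probe sets, with a filter at the 60th percentile (9 genes) or without _s_at and _x_at probe sets (7 genes). Past 1.5-fold the count of probe sets of these genes was 0 in every setting run, and at 1.2-fold it was 1. Among other immediate early genes the count past 1.5-fold was 1 instead of 0 with the median difference or the loess curve subtracted. Among AP-1 target genes it was 1 instead of 2 with a pseudocount of 32 or the median difference subtracted. Medians near 0 turned sign in some settings: for dimer partners they ran from -0.029 to 0.0091, for other immediate early genes from -0.044 to 0.043 and for upstream kinases and factors from -0.061 to 0.040. For AP-1 target genes they ran from 0.035 to 0.14. The probe sets of FOSL2 and JUNB, at intensities of 120 or less against a detection intensity of 63.9, limit what these arrays can show for both genes.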
